A study of Mus musculus with 24 samples.

Results

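In E10.5 mouse forelimb buds that lacked Sonic hedgehog (Shh), 394 regions carried well-ranked H3K27ac enrichment where the wild-type (WT) peak list held no H3K27ac peak within 1 kb. These Shh-/- only peaks were chosen by their deposited acetylation values: a rank of at most 15000 in the Shh-/- H3K27ac list and no peak of the WT H3K27ac list within 1 kb, on chromosomes 1 to 19 and X. They were 394 of 14994 peaks of that rank, or 2.63%. The remaining 14600 had a WT peak within 1 kb and served as the comparison, here called shared peaks. The same rule with the genotypes exchanged gave 782 WT only peaks out of 14996, or 5.21%. Rank, score, acetylation and distance to a WT peak therefore describe the selection and are not findings, whereas H3K4me2, H3K27me3, NIH3T3 acetylation, genome position and sequence played no part in it.

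The study asked how Hedgehog (HH) signaling shapes chromatin at enhancers by chromatin immunoprecipitation and sequencing (ChIP-seq) in 24 libraries, of which 14 were immunoprecipitations and 10 were inputs. Limb samples were forelimb buds of Swiss Webster embryos at E10.5 with 32 to 35 somites, either Shh-/- or labelled WT, with 400000 cells per immunoprecipitation. By the study's methods limb buds were pooled over several litters and the WT controls were a mixture of WT and heterozygous littermates, so they may carry 1 mutant Shh allele. H3K27ac and H3K4me2 were mapped in both genotypes and H3K27me3 is used here in Shh-/- limb buds. NIH3T3 cells, HH-responsive mouse fibroblasts, were assayed for H3K27ac with 1000000 cells after 48 h in 400 nM of the pathway agonist purmorphamine or in DMSO. Each condition had 2 replicates, but each deposited list pools them, so no value below has a replicate error and no test between conditions was possible. Intervals in brackets are 95% Wilson intervals of a share and cover counting error only. The lists carry no read counts, so the depth behind each is unknown, and they end at a score of 3.00. A region missing from the WT list is thus a region without a listed peak, not a region shown to lack acetylation.

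Acetylation of histone H3 at lysine 27 marks enhancers and promoters in use, dimethylation at lysine 4 (H3K4me2) is found at regulatory elements both idle and in use, and H3K27me3 is laid down by Polycomb complexes at silenced genes. In the limb bud Shh is made by posterior mesenchyme. Without it the GLI transcription factors stay in their repressor form, posterior targets are not switched on, and the limb bud keeps mostly anterior and proximal character. The genes described below are therefore grouped by anterior, proximal, posterior and distal roles, with signaling, cartilage and other cell type genes beside them. In whole limb buds, more cells with a mark and more of the mark per cell cannot be told apart.

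The central bases of 7 Shh-/- only peaks on which the account turns are printed 5′ to 3′ on the plus strand of GRCm38, the assembly that mm10 names, with capitals marking exact matches on either strand to any of 16 short transcription factor motifs. Prrx1 is the best-ranked peak far from a gene, Gas1 and Bmp2 are signaling loci among the 15 best ranks, Thbs2 belongs to a cluster of such peaks, Hand1 to a close pair, and Alx4 and Zic2 are the anterior limb loci. The positions are, in the order printed, chr1:163200450-163200749, chr13:60156400-60156699, chr2:133525975-133526274, chr17:14494275-14494574, chr11:57885650-57885899, chr14:122480600-122480799 and chr2:93631775-93632074.
Prrx1: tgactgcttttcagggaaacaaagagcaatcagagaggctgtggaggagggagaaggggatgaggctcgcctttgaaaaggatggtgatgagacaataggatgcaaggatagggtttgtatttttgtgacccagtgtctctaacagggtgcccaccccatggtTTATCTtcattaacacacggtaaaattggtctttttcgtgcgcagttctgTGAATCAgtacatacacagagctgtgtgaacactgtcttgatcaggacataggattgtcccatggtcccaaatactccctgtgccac
Gas1: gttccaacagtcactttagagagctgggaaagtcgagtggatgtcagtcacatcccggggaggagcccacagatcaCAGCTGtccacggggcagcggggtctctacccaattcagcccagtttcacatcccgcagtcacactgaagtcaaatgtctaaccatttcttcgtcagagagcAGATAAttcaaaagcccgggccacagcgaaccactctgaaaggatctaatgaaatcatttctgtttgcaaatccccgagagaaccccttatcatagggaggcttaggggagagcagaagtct
Bmp2: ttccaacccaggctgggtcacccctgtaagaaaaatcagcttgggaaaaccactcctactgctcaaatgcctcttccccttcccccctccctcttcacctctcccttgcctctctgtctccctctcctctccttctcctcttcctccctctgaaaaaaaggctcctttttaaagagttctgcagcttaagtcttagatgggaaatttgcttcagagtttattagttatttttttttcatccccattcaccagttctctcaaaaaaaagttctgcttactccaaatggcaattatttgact
Thbs2: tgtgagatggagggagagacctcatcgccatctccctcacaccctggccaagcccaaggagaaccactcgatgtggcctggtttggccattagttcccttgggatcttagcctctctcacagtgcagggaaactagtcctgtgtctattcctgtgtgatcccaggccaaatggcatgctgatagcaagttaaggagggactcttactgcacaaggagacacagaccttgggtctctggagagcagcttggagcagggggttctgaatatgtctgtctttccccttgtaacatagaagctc
Hand1: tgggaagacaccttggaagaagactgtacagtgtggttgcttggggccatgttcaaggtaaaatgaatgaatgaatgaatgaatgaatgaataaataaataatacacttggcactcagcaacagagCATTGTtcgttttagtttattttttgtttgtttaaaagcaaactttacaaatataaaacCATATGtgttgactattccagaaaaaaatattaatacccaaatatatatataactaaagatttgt
Zic2: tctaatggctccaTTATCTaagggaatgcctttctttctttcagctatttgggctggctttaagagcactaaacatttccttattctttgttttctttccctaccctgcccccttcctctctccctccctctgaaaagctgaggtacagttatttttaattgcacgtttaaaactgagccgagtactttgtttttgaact
Alx4: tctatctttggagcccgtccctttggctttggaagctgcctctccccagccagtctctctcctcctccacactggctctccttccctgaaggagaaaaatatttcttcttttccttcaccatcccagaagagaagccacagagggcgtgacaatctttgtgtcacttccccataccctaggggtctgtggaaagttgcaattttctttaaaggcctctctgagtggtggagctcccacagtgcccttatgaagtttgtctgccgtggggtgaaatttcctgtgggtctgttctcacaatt
The capitals mark 1 AP-1 motif (TGANTCA) and 1 GATA motif (AGATAA) in the Prrx1 sequence, 1 E-box (CAGCTG) and 1 GATA motif near Gas1, 1 E-box of the TWIST and HAND type (CATATG) and 1 SOX motif (ACAATG) near Hand1, and 1 GATA motif near Zic2. The Bmp2, Thbs2 and Alx4 sequences held none of the 16. No GLI motif (GACCACCCA) lay in any of the 7. GC content ran from 30% at Hand1 to 52.7% at Thbs2, and the Gas1 sequence had the most CpG dinucleotides, 9 in 300 bases, against 0 in the 300 bases near Bmp2.

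Against the word strong in their working name, the Shh-/- only peaks lay toward the weak end of the 15000. Their ranks ran from 3198 to 15000 with a median of 12094. None was among ranks 1 to 3000. Of ranks 1 to 5000, 3 of 5000 (0.0600%) were Shh-/- only, of ranks 5001 to 10000, 87 of 4997 (1.74%), and of ranks 10001 to 15000, 304 of 4997 (6.08%). WT only peaks also became more frequent toward the weaker ranks, with 22 of 5000 (0.440%), 200 of 4997 (4.00%) and 560 of 4999 (11.2%). The score, the authors' largest ChIP against input statistic in a peak, had a median of 4.59 (range 4.33 to 6.14) in Shh-/- only peaks and 5.19 in shared peaks. The largest log2 ratio of ChIP to input had a median of 3.53 (range 3.34 to 4.74) against 4.00, and the width a median of 300 bp (range 100 to 1050) against 650 bp.

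**Figure D1:**
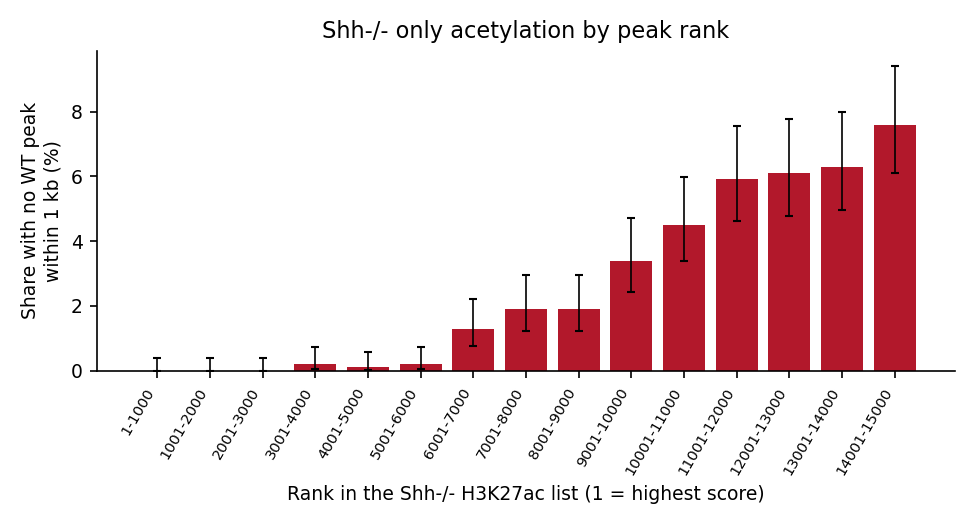
Share of Shh-/- H3K27ac peaks with no WT H3K27ac peak within 1 kb (y axis, percent, starting at 0) in each block of 1000 ranks (x axis), with 95% Wilson intervals that cover counting error only. No peak of ranks 1 to 3000 qualified, and the share was highest, at 7.60%, in the last block, so most Shh-/- only peaks sit near the weak end.

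The gap from an Shh-/- only peak to the nearest WT peak had a median of 13701 bp and a range of 1001 to 931701 bp. It was at most 2 kb for 57 peaks, over 5 kb for 281 (71.3%), over 10 kb for 227 (57.6%) and over 100 kb for 46 (11.7%). A further 831 peaks of rank up to 15000 overlapped no WT peak but had one within 1 kb, and were not members.

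At the limits of the rule the values were continuous. The last peaks inside the rank limit were at rank 14994 near Haao and 15000 near Hace1, both with a score of 4.33, and the next outside it were at rank 15032 near Pmaip1 and 15045 near Tmem164, also at 4.33. Peak ends lie on a 50 bp grid, and 10 members lay at the smallest gap allowed, 1001 bp. The 2 best-ranked of them were near Zpld1 (rank 10138) and Anxa2 (rank 10226), while the 2 best-ranked excluded at 951 bp were near Ell2 (rank 10949) and Dtnbp1 (rank 11331).

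Few Shh-/- only peaks carried H3K4me2 in either genotype. A WT H3K4me2 peak overlapped 70 of 394 (17.8%, 14.3 to 21.8), where 53.5% of all 14994 ranked peaks had one. An Shh-/- H3K4me2 peak overlapped 66 (16.8%, 13.4 to 20.8), where 52.1% of all had one. Because Shh-/- only peaks were weaker and narrower than shared peaks, the shared peaks were also weighted to the same mix of score and width, which brought their shares to 37.9% for WT and 36.0% for Shh-/- H3K4me2, still above the upper bounds for Shh-/- only peaks. In the WT only peaks the shares were 26.3% (23.4 to 29.5) and 24.3% (21.4 to 27.4). WT only peaks were not weighted here or below. They scored higher in their own list (median 4.75) and were wider (median 400 bp) than Shh-/- only peaks (4.59 and 300 bp). The part of score and width in their shares was not tested.

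Where H3K4me2 was present it was mostly listed in both genotypes. Of the 66 Shh-/- only peaks with Shh-/- H3K4me2, 54 (81.8%, 70.9 to 89.3) also had WT H3K4me2, while 16 had it in the WT list alone and 12 in the Shh-/- list alone. For shared peaks the first share was 90.5%, above that interval, and for WT only peaks 86.8% (81.3 to 90.9). The single-list regions were 4.06% and 3.05% of all Shh-/- only peaks, near the 5.96% and 4.04% of shared peaks after weighting. In the 54 with both, the largest log2 ratio of H3K4me2 ChIP to input had a median of 3.44 in WT and 3.52 in Shh-/-. The median of the difference within a region, Shh-/- minus WT, was -0.05 with quartiles of -0.53 and 0.35, and 24 of 54 (44.4%) were higher in Shh-/-. Of the shared and WT only peaks with both, 52.2% and 49.7% were higher in Shh-/-. The H3K4me2 ratio thus had no common direction between genotypes in these regions.

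H3K4me2 lay mainly at the promoters among these regions. Of 66 Shh-/- only peaks at a promoter (from 2 kb before to 1 kb after an annotated start), 51 (77.3%, 65.8 to 85.7) had H3K4me2 in at least 1 genotype. Of the 328 elsewhere, 31 (9.45%, 6.74 to 13.1) did. Shared peaks had it at 91.3% of promoters and 28.2% of distal regions, so the distal Shh-/- only peaks were below shared peaks as well. Among peaks with H3K4me2 in the Shh-/- list alone, the 5 best-ranked lay near Hdgfl2, Itga11, Gas1, Zfp507 and Ptx3, with H3K4me2 log2 ratios of 3.14, 2.81, 2.47, 3.17 and 2.85. Among those with it in the WT list alone, the 5 best-ranked lay near Zfp644, Tenm3, Zfp324, Trib2 and Pim3, with log2 ratios of 2.86, 2.34, 2.58, 2.24 and 3.77.

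H3K27me3 was rarely listed at these regions, as at all ranked peaks. H3K27me3 overlapped 2 of 394 (0.508%, 0.139 to 1.83), against 0.947% of all ranked peaks, 0.402% of shared peaks after weighting and 2.30% (1.46 to 3.61) of WT only peaks. The 2 lay near Zic2, a zinc finger transcription factor gene, where the H3K27me3 log2 ratio was 3.30, and at the start of Dkk1, a secreted Wnt inhibitor, where it was 2.38. At Dkk1 the region also had H3K4me2, with log2 ratios of 3.03 in WT and 3.52 in Shh-/-. With 2 members the count is too small to separate from either comparison. The share fell to 0.254% with an FDR under 0.05 required in every list, and to 0.254% with 50% of the peak overlapped. The 2 regions thus did not both meet either setting. Counting an H3K27me3 peak within 1 kb raised the share to 1.78%, against 2.05% of shared peaks without weighting.

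Acetylation of the same regions in fibroblasts was less frequent than at shared peaks. A control (DMSO) NIH3T3 H3K27ac peak overlapped 105 of 394 (26.6%, 22.5 to 31.2), against 57.9% of all ranked peaks and 46.2% of shared peaks after weighting. A purmorphamine NIH3T3 peak overlapped 106 (26.9%, 22.8 to 31.5), against 57.7% and 46.5%. Either list held 118 (29.9%, 25.6 to 34.6). The low shares were not particular to Shh-/- only peaks. WT only peaks had 26.6% (23.6 to 29.8) for DMSO, 31.5% (28.3 to 34.8) for purmorphamine and 33.6% (30.4 to 37.0) for either, with intervals that overlap those of Shh-/- only peaks. The fibroblast state showed no lean toward either treatment: 93 regions were in both lists, 12 in the DMSO list alone and 13 in the purmorphamine list alone. Of WT only peaks, 17 were in the DMSO list alone and 55 (7.03%, 5.44 to 9.04) in the purmorphamine list alone, a share above the 3.30% (1.94 to 5.56) of Shh-/- only peaks, although these intervals overlap.

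In 41 Shh-/- only peaks (10.4%) both H3K4me2 lists and both NIH3T3 lists had a peak, and 30 of these lay at promoters. Shared and WT only peaks were not counted for this class. The 5 best-ranked were at or near Msrb3, a methionine sulfoxide reductase gene, Abhd18, Dnajc19, Snx24 and Sparc, a matricellular protein gene. At Msrb3, rank 6085 and directly on the start, the log2 ratios were 4.17 for Shh-/- H3K27ac, 4.98 for WT H3K4me2, 3.69 for Shh-/- H3K4me2, and 4.47 and 4.52 for DMSO and purmorphamine NIH3T3 H3K27ac. At the other extreme 251 regions (63.7%, 58.8 to 68.3) had none of the 5 other lists, and 239 of these were distal. For shared peaks this share was 28.5%, or 42.8% after weighting, and for WT only peaks it was 55.0% (51.5 to 58.4). A further 60 Shh-/- only peaks (15.2%) had NIH3T3 acetylation without H3K4me2 in the limb, 57 of them distal. Of the 118 Shh-/- only peaks acetylated in NIH3T3 cells, the other 58 (49.2%, 40.3 to 58.1) had H3K4me2. That share was 80.5% for shared peaks and 55.5% (49.5 to 61.4) for WT only peaks. The intervals of the 2 genotype-specific sets overlap.

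**Figure D2:**
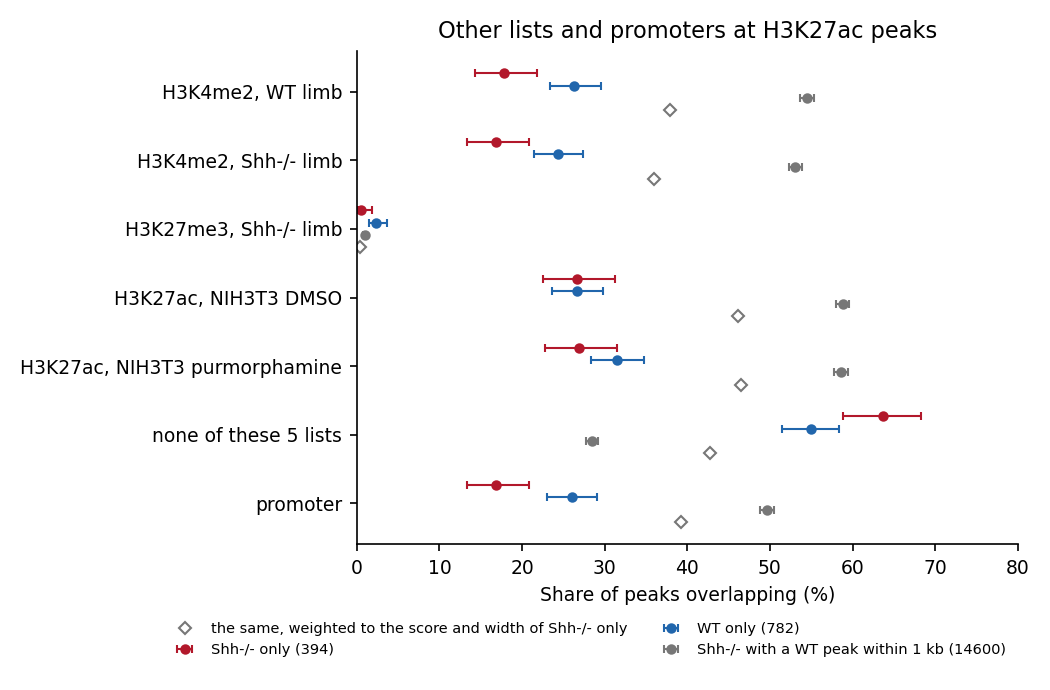
Share of peaks (x axis, percent, starting at 0) that overlap each of 5 other peak lists, none of them, or a promoter, for Shh-/- only, WT only and shared peaks, with 95% Wilson intervals for counting error only, and open diamonds for shared peaks weighted to the score and width of Shh-/- only peaks. Shh-/- only peaks lie left of the shared peaks for both H3K4me2 lists, both NIH3T3 lists and promoters. They lie right of them for regions with none of the 5 lists (63.7% against 42.8% after weighting). In WT only peaks, which were not weighted, that last share was 55.0%.

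Most Shh-/- only peaks lay away from promoters. Promoters held 66 of 394 (16.8%, 13.4 to 20.8), where 48.8% of all ranked peaks and 39.2% of shared peaks after weighting were at one. Introns held 156 (39.6%), exons 54 (13.7%) and intergenic sequence 184 (46.7%, 41.8 to 51.6), the last against 34.3% of shared peaks after weighting. The median distance to the start of a protein-coding gene was 65066 bp against 6300 bp in shared peaks, and 156 (39.6%, 34.9 to 44.5) were over 100 kb away, against 24.2% of shared peaks after weighting. GC content in the 500 bp around the centre had a median of 45.8% against 51%, and the ratio of observed to expected CpG 0.231 against 0.396. Annotated repeats covered at least 50% of that window in 9 regions (2.28%). In position, WT only peaks, which were not weighted for score and width, lay between Shh-/- only and weighted shared peaks. Of them 26.0% (23.0 to 29.1) were at a promoter, 40.5% (37.2 to 44.0) were intergenic and 33.6% (30.4 to 37.0) were over 100 kb away.

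The sequence around the peak centres was read for 16 short motifs, matched exactly on either strand in the same 500 bp, none of which contains another. The GLI motif GACCACCCA was found in 0 of 394, which allows a share of up to 0.761% by the limit of 3 counts and 0.966% by the Wilson bound, against 0.370% of shared peaks (0.512% after weighting) and 1.02% of WT only peaks. The TCF and LEF motif ATCAAAG was in 41 (10.4%, 7.76 to 13.8), against 6.86% of shared peaks after weighting and 6.14% (4.66 to 8.04) of WT only peaks. The retinoic acid receptor core AGGTCA was in 113 (28.7%, 24.4 to 33.3) against 24.5%, and the posterior HOX motif TTTATNG in 98 (24.9%, 20.9 to 29.4) against 20.4%. The SP and KLF motif GGGCGG, common in CpG-rich promoters, was in 67 (17.0%, 13.6 to 21.0) against 28.8%. The E-box CAGCTG was in 107 (27.2%, 23.0 to 31.8) against 22.5%. The weighted share of shared peaks lay outside the interval for the TCF and LEF, posterior HOX, E-box, and SP and KLF motifs, and inside it for the other 12 motifs, with the retinoic acid receptor core close to the bound. WT only peaks had the posterior HOX motif at 24.6%, the E-box at 23.8%, the retinoic acid receptor core at 25.1% and the SP and KLF motif at 21.4%, the posterior HOX share being nearly that of Shh-/- only peaks. Weighting did not include GC content, and the part of base composition in these shares was not tested. These matches are counts of letters and not of bound sites.

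The 15 best-ranked Shh-/- only peaks ran from rank 3198 to 6862, and 4 of them lay at a promoter, those of Hdgfl2, Msrb3, Abhd18 and Dnajc19. The best-ranked distal region was 112819 bp from Prrx1, a homeobox gene of limb mesenchyme, at rank 3550 with a score of 6.03 and an H3K27ac log2 ratio of 4.66. It had no peak in any of the 5 other lists, and the nearest WT H3K27ac peak was 8701 bp away. A neighbouring Shh-/- only peak at rank 12238 (log2 ratio 3.52) made the region a pair that spans 1600 bp, and that neighbour overlapped a DMSO NIH3T3 peak with a log2 ratio of 2.40. Within 50 kb on either side of the rank 3550 peak there were 26 Shh-/- and 16 WT H3K27ac peaks, 35 DMSO and 21 purmorphamine NIH3T3 peaks, and no WT H3K4me2 peak, so the surroundings were acetylated in both genotypes and in fibroblasts.

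Signaling genes were among the best ranks. A region 20192 bp from Gas1, which encodes a co-receptor for HH ligands, ranked 6492 with an H3K27ac log2 ratio of 4.11 and an H3K4me2 ratio of 2.47 in the Shh-/- list alone. The nearest WT acetylation was 8301 bp away, and within 50 kb the WT list held 13 H3K27ac peaks and the Shh-/- list 19, including large peaks of both genotypes at Gas1 itself. A region 25860 bp from Bmp2, a BMP ligand gene expressed in posterior limb mesenchyme and in the apical ridge, ranked 6688 with a log2 ratio of 4.09. It had no H3K4me2, no H3K27me3 and no NIH3T3 acetylation, and the nearest WT acetylation was 38851 bp away. The 100350 bp window around it held 8 Shh-/- and 4 WT H3K27ac peaks and 3 H3K27me3 peaks.

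The rest of the 15 were near genes of several kinds. Itga11, which encodes a collagen-binding integrin subunit, had an intronic region at rank 4806 with H3K4me2 in Shh-/- alone (log2 ratio 2.81) and acetylation in both NIH3T3 lists (2.39 and 2.55). Adamts20, a secreted metalloprotease gene, had an intronic region at rank 6697 with none of the 5 other lists, 1601 bp from a WT peak. Dclk1, a doublecortin-like kinase gene, had an intronic region at rank 6538 that overlapped a DMSO NIH3T3 peak (2.66) and no purmorphamine peak. Ranks 5460 near Pcyt1a and 6862 near Zcchc2 had no other list, rank 5197 near Zfp644 had WT H3K4me2 alone, and rank 6763 near Ilvbl had NIH3T3 acetylation in both lists. The region at rank 6178 was 1105793 bp from Efnb2, its nearest protein-coding start, and had no other list. Of the 15, 6 had none of the 5 other lists and 7 were acetylated in at least 1 NIH3T3 list.

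Few of the anterior and none of the proximal limb genes had an Shh-/- only peak close by. Of 21728 protein-coding genes, 669 (3.08%) had an Shh-/- only peak within 100 kb of a start. Of 14 anterior limb genes 2 did (14.3%, 4.01 to 39.9), a share above that of all genes but resting on 2 genes, and of 19 proximal limb and retinoic acid genes 0 did (0 to 16.8%). For Alx4, a homeobox gene of anterior limb mesenchyme, the region ranked 14543 with a log2 ratio of 3.37, lay 10235 bp from the start and had no other list. For Zic2 it ranked 10784 with a log2 ratio of 3.64, lay 5165 bp from the start and had H3K27me3, and its gap to WT acetylation was 1001 bp, the smallest the rule allows. With the distance widened to 500 kb, a choice made after the data were seen, 5 of 14 anterior genes (Alx4, Pax9, Zic2, Asb4 and Lhx9) had one, or 35.7% (16.3 to 61.2), and 2 of 19 proximal genes (Pbx3 and Cyp26b1) did (2.94 to 31.4%), against 13.3% of all protein-coding genes. The anterior share at 500 kb was not particular to that list, as 4 of 11 BMP pathway and 4 of 11 chondrogenic genes (36.4% each) had one. So did 4 of 20 posterior and HH target, 3 of 12 p53 and cell death, and 1 of 14 distal mesenchyme genes. WT only peaks lay within 100 kb of 1 and within 500 kb of 4 of the 14 anterior genes, against 6.96% and 26.6% of all genes. The 1 was again Zic2, with a WT only peak 7365 bp from the start at rank 10848 of the WT list. Zic2 thus had peaks of both kinds close by. Every one of the 14 anterior and 17 of the 19 proximal genes had a shared peak within 100 kb.

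Posterior genes were near WT only rather than Shh-/- only peaks. Of 20 posterior limb and HH target genes, Bmp2 alone had an Shh-/- only peak within 100 kb, while 11 had a WT only peak, against 6.96% of all genes. Of 14 distal mesenchyme genes the counts were 0 and 3. As the WT only peaks were selected on acetylation in the same libraries, these counts describe the lists and are not independent support for either direction.

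BMP and cartilage genes had a few Shh-/- only peaks each. Of 11 BMP pathway genes 2 had one within 100 kb: Bmp7, a ligand gene, at 94172 bp and rank 14126, and Id1, a target gene, at 35102 bp and rank 14854. Of 11 chondrogenic genes 3 did. At Runx2, the transcription factor gene of bone formation, the region at rank 12362 lay 249 bp from a start with a log2 ratio of 3.51, had both H3K4me2 and both NIH3T3 lists, and was 31901 bp from WT acetylation. Near Col2a1, a cartilage collagen gene, it lay 22655 bp away at rank 13421, and in Sox6, a transcription factor gene of cartilage, it was intronic, 76861 bp from the start, at rank 11119. Neither had another list. WT only peaks lay within 100 kb of 2 of the 11 BMP pathway genes and 2 of the 11 chondrogenic genes, so neither list leaned clearly to one kind. At Sox6 the WT only peak was the nearer, 8640 bp from the start. Of all genes 3.08% had an Shh-/- only peak within 100 kb and 6.96% a WT only peak. No p53 or cell death gene of 12 had an Shh-/- only peak within 100 kb, and 0 of 12 had a WT only peak.

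Of the marker lists of other tissues, the ectoderm list alone had members with an Shh-/- only peak within 100 kb. None of 9 muscle precursor, 13 endothelial, 10 blood, 7 neural crest and Schwann, and 12 somite and flank genes had one, and with 3.08% of all genes having one, lists of this size can hold none by count alone. Within 500 kb the counts were 2 of 9, 0 of 13, 1 of 10, 0 of 7 and 3 of 12 in the same order, and 3 of 16 for the ectoderm list, where 13.3% of all genes had one. WT only peaks lay within 100 kb of 1 of 9, 3 of 13, 0 of 10, 2 of 7 and 4 of 12 genes in that order. They also lay within 100 kb of 4 of the 16 ectoderm genes (Fgf9, Fgf17, Krt8 and Krt18), against 6.96% of all genes. Of 16 ectoderm and apical ridge genes, Dlx5 and Dlx6 shared a region 19 bp from the Dlx5 start, at rank 9227 with an H3K27ac log2 ratio of 3.79, H3K4me2 in both genotypes and no NIH3T3 acetylation. The nearest WT H3K27ac peak was 144801 bp away. Both are homeobox genes of the apical ridge that limb mesenchyme also uses. Across whole promoters, acetylation in the WT and Shh-/- lists covered 13 and 13 of 14 distal mesenchyme genes and 13 and 13 of 14 anterior genes and 17 and 11 of 20 posterior and HH target genes. It covered 0 and 1 of 16 ectoderm, 1 and 4 of 9 muscle precursor, 4 and 4 of 13 endothelial, 1 and 0 of 10 blood, 2 and 2 of 7 neural crest, and 5 and 5 of 12 somite and flank genes. The muscle precursor list thus had more promoter peaks in Shh-/- than in WT, and the part of these cells in the Shh-/- only peaks was not tested.

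**Figure D3:**
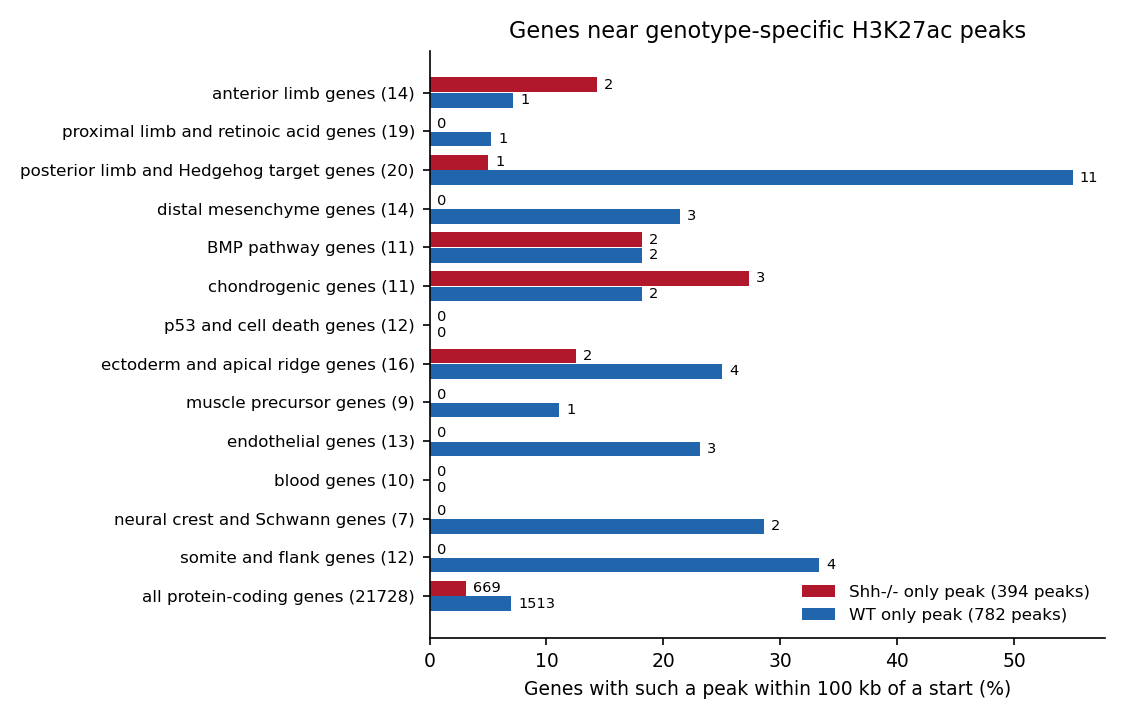
Share of genes in each list (x axis, percent, starting at 0) with an Shh-/- only or a WT only H3K27ac peak within 100 kb of a start, with the number of genes at each bar and the list size in brackets. Anterior genes reach 2 of 14 and proximal genes 0 of 19 for Shh-/- only peaks, and posterior genes reach 11 of 20 for WT only peaks.

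Promoters of secreted Wnt inhibitors were noticed among the promoter regions, and these genes were named after their values were seen. The starts of Wif1, Dkk1 and Dkk2 each lay within 300 bp of an Shh-/- only peak, at 126, 216 and 293 bp and at ranks 10615, 13371 and 14539. The H3K27ac log2 ratios were 3.66, 3.44 and 3.37. All 3 promoters had H3K4me2 in both genotypes, with log2 ratios of 4.30 in WT and 3.27 in Shh-/- at Wif1, 3.03 and 3.52 at Dkk1, and 3.91 and 4.36 at Dkk2. None was acetylated in NIH3T3 cells, and the nearest WT acetylation was 5301, 77351 and 59251 bp away. A list of 13 secreted Wnt inhibitor genes written at that point had 3 with such a promoter and 4 with an Shh-/- only peak within 100 kb, against 3.08% of all genes. The fourth was Sfrp5 at 54703 bp from a peak on the Marveld1 promoter. WT only peaks lay within 100 kb of 2 others of the list, against 6.96% of all genes. Within 500 kb 6 of the 13 had an Shh-/- only peak and 7 a WT only peak, against 13.3% and 26.6% of all genes. Across whole promoters 3 of the 13 were acetylated in WT and 5 in Shh-/-. Of 12 HH release and co-receptor genes, also listed then, Gas1, Disp1 and Scube3 had an Shh-/- only peak within 100 kb, and 0 had a WT only peak. Within 500 kb the counts were 4 and 4, against the same 13.3% and 26.6% of all genes. At Disp1, needed for the release of HH ligand, it was intronic, 7289 bp from the start, at rank 13890, and was acetylated in both NIH3T3 lists (4.31 and 4.00). No count over these 2 lists is evidence of their direction, since the genes prompted them.

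Shh-/- only peaks were mostly solitary. With gaps of up to 100 kb, 330 stood alone, and 27 pairs, 2 triplets and 1 group of 4 made up the rest. Another Shh-/- only peak lay within 100 kb of 64 (16.2%), against 6.99% of shared peaks, or 6.31% after weighting. This comparison is not independent of the rule, as a peak close to a member tends to lie over 1 kb from WT peaks too. Several pairs spanned 1600 bp or less, such as those near Hand1 (950 bp), Zfp644 (1050 bp) and Prrx1 (1600 bp). Whether such pairs are parts of 1 enriched stretch was not tested. Strong WT only peaks lay within 100 kb of 33 (8.38%), against 9.89% of weighted shared peaks. Hand1, a bHLH transcription factor gene, had a pair 52832 and 53532 bp away at ranks 10587 and 13037, with log2 ratios of 3.66 and 3.46, no other list, and a nearest WT peak 57351 bp from the first of them.

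The group of 4 lay in introns of Smyd3, a lysine methyltransferase gene, at chr1:179426800-179479799, with ranks of 11124, 6943, 12817 and 14004. The Shh-/- list had 29 and the WT list 15 H3K27ac peaks in these 53000 bp, and the Shh-/- only peaks flanked a block acetylated in both genotypes, with gaps to WT acetylation of 1901, 1051, 1001 and 4051 bp. None of the 4 had H3K4me2, H3K27me3 or NIH3T3 acetylation.

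The triplet between Smoc2 and Thbs2, genes of matricellular proteins, was the only run of at least 3 members with no WT acetylation inside it. Several pairs had none either, but these spanned 1600 bp or less, where the 1 kb rule leaves no room for a WT peak. At chr17:14455150-14494849 the Shh-/- list had 6 H3K27ac peaks and the WT list 0. WT acetylation lay close by, however. In the 59700 bp window around the run the last member ended at 49699 bp, and a WT peak at rank 9877 with a log2 ratio of 3.99 began at 51650 bp. The 3 Shh-/- only peaks ranked 13454, 7452 and 9566, with log2 ratios of 3.43, 3.99 and 3.76, and lay at least 175591 bp from a protein-coding start, within the long non-coding gene Gm38551. The region at rank 13454 was acetylated in both NIH3T3 lists (log2 ratios 3.36 and 3.54), that at rank 7452 in the purmorphamine list alone (2.33) and that at rank 9566 in neither, and none had H3K4me2.

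The other triplet lay beyond the 3′ end of Med13l, which encodes a Mediator subunit, on the side toward Tbx3, a T-box gene of the limb margins. At chr5:118929500-119006099 the Shh-/- list had 24 and the WT list 14 H3K27ac peaks. The 3 Shh-/- only peaks ranked 10565, 11255 and 11276 with log2 ratios of 3.66, 3.60 and 3.60. The region at rank 11276 had H3K4me2 in both genotypes, with log2 ratios of 3.14 in WT and 4.26 in Shh-/-, and the other two had none. The Tbx3 start was 695620 bp from the middle region. No NIH3T3 peak lay in the window.

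Along the genome the members were spread over all 20 chromosomes. The share of ranked peaks that were Shh-/- only ran from 1.87% (1.24 to 2.81) on chromosome 2 to 3.67% (2.54 to 5.29) on chromosome 10, intervals that overlap. None of 66 ranked peaks within 5 Mb of Shh on either side was Shh-/- only, and 3 of 119 within 10 Mb were, where 2.63% of ranked peaks were across the genome.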

How the data were processed

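Peak lists of 7 ChIP-seq conditions were used. Reads had been aligned to mm10 with Bowtie2 2.2.5 per the submitters' processing notes, and the authors called peaks against input with CisGenome on both replicates together. For each peak the authors deposited a rank, a position, a length, a false discovery rate (a q-value), a score (the largest ChIP against input statistic, on which the rank is ordered), the maximal log2 ratio over input, and the −log10 of the smallest Poisson p-value. These deposited values were used to rank and describe peaks within a list and never tested between lists. Samples were grouped by their labels. Depth per library is unknown from the lists, and a list with fewer reads can lose weak peaks.

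From these lists, members were found by distance between peak ends (1-based), with a gap of over 1 kb to any WT peak. A mark was present if its peak overlapped by at least 1 bp. Gene starts came from GENCODE vM21 basic, sequence from GRCm38; no peak ended past a chromosome of that assembly. Shares of shared peaks were weighted to the members over strata of score decile and width decile. Overlaps were tested on simulated data and against bedtools 2.31.1, which gave the same 394 members. Python 3 with pandas and scipy made the computations. The members, gene lists and motifs were chosen with earlier results of these data known. Named genes are those of the 15 best ranks, members within 100 kb of a listed gene, runs of at least 3 members, the 5 best-ranked of each mark class and the members at the limits. Hand1, Wif1, Dkk1, Dkk2, Sfrp5, Marveld1, Disp1 and Scube3 were named after their values were seen. Alternatives changed the distance, the rank limit, the list sizes, the FDR, the overlap and the promoter width. Some genes of the lists are not reported here by name.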

Additional observations from a re-analysis of the deposited data

How the results depend on the processing

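No paired analysis was possible because each deposited list pools its 2 replicates, and for the same reason no replicate could be left out. The number of Shh-/- only peaks followed the rule: 1225 when only an overlap removed a peak, 281 when a WT peak within 5 kb did, 528 with the WT list shortened to the size of the Shh-/- list, 90 at ranks up to 10000 and 1031 at ranks up to 20000. An FDR under 0.05 in every list left 394. At ranks up to 10000 the shares were 21.1% for Shh-/- H3K4me2, 36.7% for either NIH3T3 list and 0% for H3K27me3. At ranks up to 20000 they were 11.9% for WT H3K4me2, 12.1% for Shh-/- H3K4me2 and 24.2% for NIH3T3. Requiring 50% of the peak to overlap gave 11.7% for Shh-/- H3K4me2. Counting a mark within 1 kb gave 23.1% for WT H3K4me2, 21.8% for Shh-/- H3K4me2 and 34.8% for NIH3T3. The other 32 values under these settings stayed within the counting interval or, for the count, within 1.5 times. Under each of these settings the shares for both H3K4me2 lists, NIH3T3 acetylation and promoters were lower in Shh-/- only than in shared peaks without weighting, except that shared peaks were not recounted with promoters of 500 bp on either side, which held 14.2% of Shh-/- only peaks. A peak just under the score of 3.00 in WT is not listed, which limits what absence from the WT list shows.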
